A study of Mus musculus with 2 samples.

Results

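The regions described here are stretches of open chromatin inside protein-coding genes and centred in no exon. They lie close to a transcription start site but outside its immediate promoter. The peak lists of the replicates were merged, and regions with at least 1 peak from each were called shared. Of 63564 shared autosomal regions, 9911 had their midpoint inside a protein-coding gene, in no annotated exon, and more than 500 and at most 10000 bp from the nearest start site of any gene. They made up 15.6% of the shared regions (exact 95% interval 15.3 to 15.9%). The nearest start site was the most upstream one of the gene holding the region for 8.20% (7.11% of the sequence meeting this position rule). For 65.6% (63.8%) it was another start site of that gene, and for 12.7% (12.6%) one of a long non-coding RNA gene. For the rest it belonged to another protein-coding gene or another gene type. The longer deposited peak lists gave 17437 such regions and the stronger 50% of peaks gave 4982. The choice used position and the presence of a peak in both replicates, and no peak strength, sequence or footprint. DNase-seq, which reads where the enzyme DNase I cuts accessible DNA, was run on the right cerebral cortex of female mice of strain B6CASTF1/J aged 18 to 20 months. There was 1 group of 2 biological replicates, with no treatment and no control. The labels give separate biosamples but the same donor identifier for both, so the spread between the replicates may be partly technical. Cortex holds neurons, glia and vessel cells, and in such bulk tissue a weaker signal from fewer cells of a type cannot be told apart from less opening per cell.

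Active promoters are kept free of nucleosomes, and enhancers inside introns open where transcription factors bind them. First introns are known for regulatory elements that act on their own gene. A bound factor shields a few bases from DNase I, and such a protected stretch is called a footprint. CTCF, which organises chromatin loops, leaves a deep one, while neuronal E-box factors of the NEUROD family and activity-responsive AP-1 bind many cortical enhancers.

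A few sequences of single regions follow, chosen by strength, gene or motif, and they need not be typical. All are from the reference strain C57BL/6J (GRCm38.p6, the assembly named mm10), plus strand, 5′ to 3′, although the mice were hybrids. In the first 5, capitals mark bases lying in a footprint of both replicates. The strongest region by mean log2 signal lay in intron 1 of Il31ra (chr13:112578141-112578340), and that of the clock gene Nr1d1 (chr11:98773871-98774170, the central part) was the fifth strongest. Those of Bdnf (chr2:109678111-109678410, the central part), Rbfox3 (chr11:118792621-118792880) and Arntl (chr7:113247241-113247460) are the strongest region in each gene, and these 3 genes were picked after their values were seen.
Il31ra: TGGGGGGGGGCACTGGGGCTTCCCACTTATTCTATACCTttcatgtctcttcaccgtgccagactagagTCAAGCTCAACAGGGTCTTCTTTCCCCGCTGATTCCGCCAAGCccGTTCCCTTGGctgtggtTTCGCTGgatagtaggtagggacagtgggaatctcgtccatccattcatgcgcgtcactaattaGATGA
Nr1d1: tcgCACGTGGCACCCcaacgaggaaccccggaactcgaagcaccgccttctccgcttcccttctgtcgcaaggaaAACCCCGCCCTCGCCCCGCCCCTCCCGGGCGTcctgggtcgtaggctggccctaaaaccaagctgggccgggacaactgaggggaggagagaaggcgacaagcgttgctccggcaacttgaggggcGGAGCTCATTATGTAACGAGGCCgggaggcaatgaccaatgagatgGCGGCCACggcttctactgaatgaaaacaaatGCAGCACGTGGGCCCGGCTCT
Bdnf: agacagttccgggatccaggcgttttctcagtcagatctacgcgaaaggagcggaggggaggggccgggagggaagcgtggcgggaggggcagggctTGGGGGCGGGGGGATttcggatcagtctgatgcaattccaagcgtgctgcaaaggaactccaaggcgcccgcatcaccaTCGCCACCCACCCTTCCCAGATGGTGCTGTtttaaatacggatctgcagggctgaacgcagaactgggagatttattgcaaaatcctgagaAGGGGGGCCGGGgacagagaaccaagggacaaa
Rbfox3: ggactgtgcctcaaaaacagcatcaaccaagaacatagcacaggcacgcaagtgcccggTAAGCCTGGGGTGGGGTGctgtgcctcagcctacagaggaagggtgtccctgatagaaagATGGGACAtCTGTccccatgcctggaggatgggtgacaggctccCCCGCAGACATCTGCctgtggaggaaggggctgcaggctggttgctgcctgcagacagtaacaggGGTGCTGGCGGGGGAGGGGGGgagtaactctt
Arntl: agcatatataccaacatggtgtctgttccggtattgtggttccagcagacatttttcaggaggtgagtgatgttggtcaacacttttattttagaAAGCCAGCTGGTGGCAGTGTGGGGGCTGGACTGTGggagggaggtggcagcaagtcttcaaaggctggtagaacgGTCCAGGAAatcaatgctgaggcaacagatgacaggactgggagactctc
In the next 4, capitals mark a motif lying wholly inside a footprint of both replicates, in the 200 bp around the midpoint. These are a CRE (TGACGTCA) in Mxi1 (chr19:53314221-53314420), the CTCF motif in Nuak1 (chr10:84438121-84438320), the NEUROD E-box (CAGATG) in Foxn3 (chr12:99392051-99392250) and AP-1 (TGANTCA) in Sfxn1 (chr13:54101141-54101340). Each is the strongest region with such a motif.
Mxi1: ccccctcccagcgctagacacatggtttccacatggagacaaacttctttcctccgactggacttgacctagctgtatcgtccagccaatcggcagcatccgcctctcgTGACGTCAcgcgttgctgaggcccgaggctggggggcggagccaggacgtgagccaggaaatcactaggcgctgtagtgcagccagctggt
Nuak1: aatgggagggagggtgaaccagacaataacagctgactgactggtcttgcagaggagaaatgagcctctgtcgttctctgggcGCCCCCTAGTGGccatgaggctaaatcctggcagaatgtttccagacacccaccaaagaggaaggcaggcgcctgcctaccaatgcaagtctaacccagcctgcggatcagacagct
Foxn3: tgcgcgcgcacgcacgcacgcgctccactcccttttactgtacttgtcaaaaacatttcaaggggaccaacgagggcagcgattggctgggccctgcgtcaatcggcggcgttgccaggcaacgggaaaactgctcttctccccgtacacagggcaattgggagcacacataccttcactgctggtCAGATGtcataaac
Sfxn1: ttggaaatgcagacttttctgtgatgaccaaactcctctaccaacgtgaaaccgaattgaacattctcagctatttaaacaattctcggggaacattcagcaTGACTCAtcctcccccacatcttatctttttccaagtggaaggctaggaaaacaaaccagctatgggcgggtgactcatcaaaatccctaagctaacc

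The signal of these regions was modest beside that of promoters. The value of a region is the authors' deposited signal of its strongest peak, compared within a library only. In replicate 1 the values ran from 0.179 to 14.2 with a median of 0.825, and in replicate 2 from 0.232 to 26.2 with a median of 1.18. Regions within 500 bp of a start site had medians of 1.54 and 2.32. Intronic regions over 10000 bp from any start site had medians of 0.765 and 1.03, and intergenic regions beyond that distance had 0.681 and 0.927. Intergenic regions over 500 and at most 10000 bp from a start site had 0.800 and 1.22. The intronic regions near start sites thus lay below the promoters in both replicates, close to the intergenic regions at like distance and above both distant classes. Within a tolerance of 0.05 steps, all values of replicate 1 were whole multiples of 0.00497, and 99.99% of those of replicate 2 were whole multiples of 0.00892. If a step is the worth of 1 read, the median region rested on 166 reads (exact 95% Poisson interval 142 to 193, counting error only) and 132 reads (110 to 157). Median width was 224 bp.

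**Figure D1:**
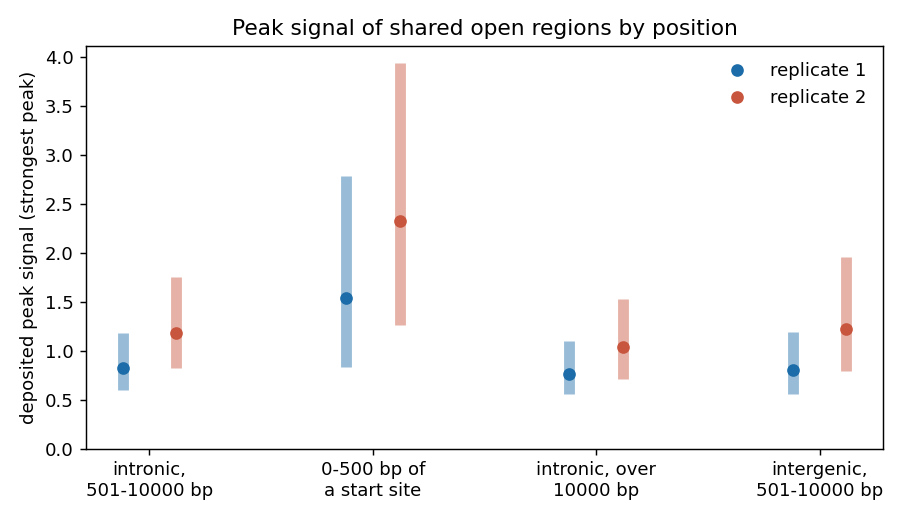
Deposited peak signal (vertical axis) of shared autosomal regions in 4 position classes, with points for medians and bars from the lower to the upper quartile in each replicate. The intronic regions near start sites have medians of 0.825 and 1.18, and regions within 500 bp of a start site 1.54 and 2.32.

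The sequence beneath the regions was richer in G and C than the sequence meeting the position rule as a whole. Their central 200 bp had a median GC content of 51.0%, while all sequence at positions that meet the rule had 43.4%. All shared regions had 52.0%, promoter regions 64.5% and intronic regions beyond 10000 bp 48.5%. The observed over expected ratio of CpG was 0.270, against 0.795 at promoters and 0.238 in the distant intronic regions. Repeats marked in lower case by the reference covered 9.03% of the windows and 28.3% of the eligible sequence. Repeats are hard to map with short reads, and the part of mapping in this difference was not tested.

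Regions were densest next to start sites, and this held at open start sites. Per Mb of sequence that meets the rule there were 48.8 regions at over 500 to 1000 bp, 29.4 at over 1000 to 2000 bp, 23.7 at over 2000 to 5000 bp and 22.7 at over 5000 to 10000 bp, a 2.15-fold difference between the nearest and the farthest. A start site was called open where a shared region was centred within 500 bp of it, so that none of the regions described could make its own start site open. This definition was set after the data had been seen. The first one used, any peak of each replicate overlapping the 500 bp on either side, let a region open its own start site, and gave 176 and 19.4 regions per Mb at 500 to 1000 bp for open and other start sites. At 500 to 1000 bp from an open start site the density was 159 per Mb (exact 95% Poisson interval 149 to 169), and at the same distance from other start sites it was 24.9 (23.0 to 26.9). At 1000 to 2000 bp the densities were 60.7 (56.1 to 65.5) and 22.3 (21 to 23.7). At 5000 to 10000 bp they were 21 (19.4 to 22.7) and 23.2 (22.3 to 24.0). Around start sites that were not open, density changed little with distance.

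**Figure D2:**
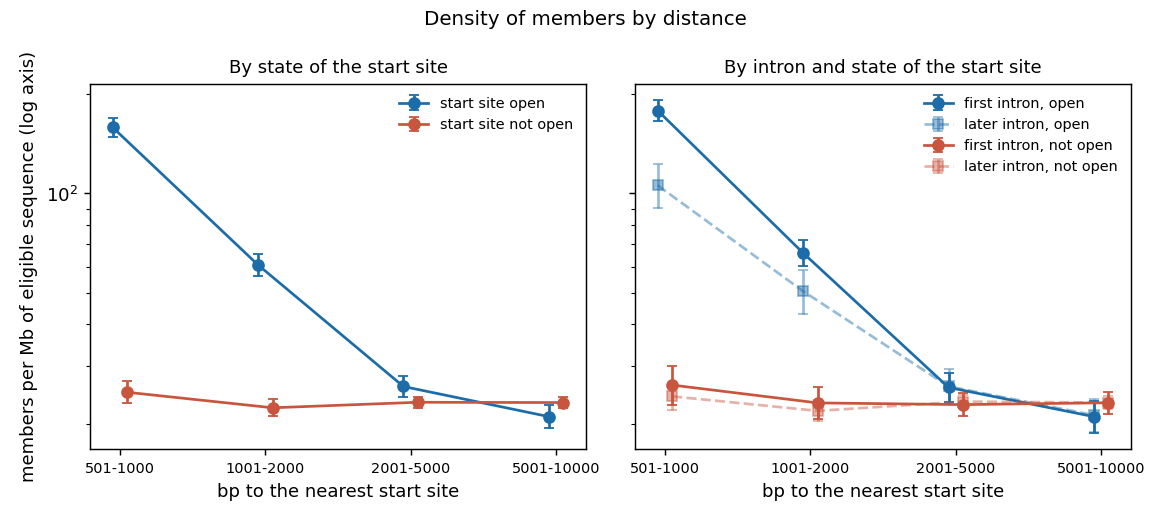
Regions per Mb of eligible sequence (log axis) by distance in bp to the nearest start site, with exact 95% Poisson intervals as bars; the left panel splits by the state of the start site, and the right panel also by first or later intron. At 500 to 1000 bp the open start sites reach 159 per Mb and the others 24.9, and the lines meet beyond 2000 bp.

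The regions next to open start sites also differed in form. At 500 to 1000 bp from an open start site, 70.8% held a footprint in replicate 1 and 67.2% in replicate 2, against 98.1% and 97.2% near other start sites. Their median signal was 0.721 and 1.04, against 0.850 and 1.29. In 42.0% of them a continuous run of positions with a false discovery rate below 0.05 reached the start site itself in both replicates, against 1.04% near the others. Their GC content was 58.5% against 52.5%. So a good part of the nearest regions joined the promoter's own open stretch, and most of the 454 regions joined in this way in both replicates lay at 500 to 1000 bp. In the first 100 bp inside the lower limit 425 regions had medians of 0.691 and 1.01, and in the last 100 bp outside it 510 intronic regions had 0.721 and 1.08. At the upper limit the 67 regions in the last 100 bp inside had 0.875 and 1.18, and the 52 in the next 100 bp had 0.654 and 0.932.

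First introns held 37.2% of the regions (36.2 to 38.2%) and 31.3% of the eligible sequence. Another 2.29% of the regions were spanned by no protein-coding transcript of their gene, at 28.0 per Mb. The density was 31.4 per Mb in first introns (30.4 to 32.4), 25.3 in the second, 23.4 in the third and 23.7 in later ones. The difference lay near open start sites. At 500 to 1000 bp from these, first introns held 179 regions per Mb and later introns 106, while at the same distance from other start sites the values were 26.2 and 24.2. From 2000 to 5000 bp from open start sites they were 25.8 and 25.9. Downstream of open start sites the density at 500 to 1000 bp was 173 per Mb (161 to 186), and upstream it was 114 (97.5 to 133).

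The promoter of the host gene was open in both replicates for 84.8% of the regions (84.1 to 85.5%), and 78.1% of the eligible sequence lay in such genes. Counting only promoter regions centred within 500 bp of a start site, the share was 83.6%. In these genes the region was weaker than the promoter in most cases, with a median log2 difference of -1.11 in replicate 1 and -1.17 in replicate 2. It was stronger than the promoter in both replicates for 924 of 8287 regions (11.2%). Mxi1, which codes for an antagonist of MYC, shows such a case. Its region had 5.18 and 10.3, and its promoter 2.16 and 3.88. The region's continuous run with a false discovery rate below 0.05 ended only 40 and 3 bp from its nearest start site, which was open.

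Footprints were found in most of the regions. In replicate 1, 94.2% held at least 1 (93.8 to 94.7%), in replicate 2, 92.0% (91.5 to 92.6%), and 8817 (89.0%) held one in each. Neither replicate had one in 268 regions (2.70%). Over all shared autosomal regions these shares were 94.6%, 92.1%, 89.4% and 2.68%, so the footprint shares here were near those of the background.

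Among 20 motifs searched on both strands in the central 200 bp, E-boxes were the most frequent. The E-boxes have 6 letters and the longest motif, CTCF, has 12, and the shares were not corrected for length. The NEUROD E-box was in 25.1% of the regions (24.2 to 26.0%) and its letters reversed (GTAGAC) in 4.45%. Among all shared autosomal regions its share was 22.4%. It was in 8.68% of promoter regions and 30.5% of distant intronic ones. The TCF E-box (CAGCTG) was in 17.9% (all shared regions 16.5%) and AP-1 in 14.5% (12.6%). The NFI motif (TTGGCA), bound by a family of factors active in glia and neurons, was in 17.6% (16.3%). In distant intronic regions the TCF E-box, AP-1 and NFI shares were 18.1%, 17.3% and 21.3%. In intergenic regions at like distance they were 17.1%, 14.1% and 16.8%, and in promoter regions 12.6%, 4.07% and 8.34%. Reversed letters of the TCF E-box, AP-1 and NFI were in 0.283%, 5.07% and 2.56% of the near-start intronic regions. Not every motif exceeded its reversed letters. Those of the nuclear receptor motif (AGGTCA) were in 13.4% against 5.15%, and those of ETS in 2.75% against 1.42%. For KLF they were in 3.04% against 2.82%, and for CRE in 0.747% against 0.626%. For all other motifs the reversed letters were rarer. Among the near-start intronic regions, AP-1 was in 9.19% at 500 to 1000 bp and in 16.7% at 5000 to 10000 bp. The E-box of clock proteins, CACGTG, was searched for after 2 copies had been seen in the Nr1d1 sequence. In the central 200 bp it was in 4.72% of the regions and 4.88% of all shared ones, so its share here was that of the background. The copies in the Nr1d1 sequence lay outside the central 200 bp, so that region is not counted in this share.

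How often a motif lay in a footprint differed widely. The CTCF motif was in 683 regions, 6.89% (all shared regions 5.71%). It was in 5.63% of distant intronic regions and in 9.95% of intergenic regions at like distance. Of its occurrences in the near-start intronic regions, 79.8% were inside a footprint in replicate 1 and 90.3% in replicate 2. For RFX (GTTGCCATG, 129 occurrences) the shares were 51.9% and 64.3%, and for CRE (63 occurrences) 54.0% and 61.9%. NRF1 (GCGCATGCG) had 58.6% and 79.3% of only 29 occurrences, and EGR (GCGTGGGCG) 46.9% and 65.6% of 32. AP-1 had 6.76% and 8.40%, and the NEUROD E-box 19.9% and 22.3%. Reversed letters of the NEUROD E-box had 3.66% and 5.39%. The long motif of SRF had 1% and 3% and that of MEF2 had 9.52% and 3.57%. The part of motif length in these shares was not tested.

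**Figure D3:**
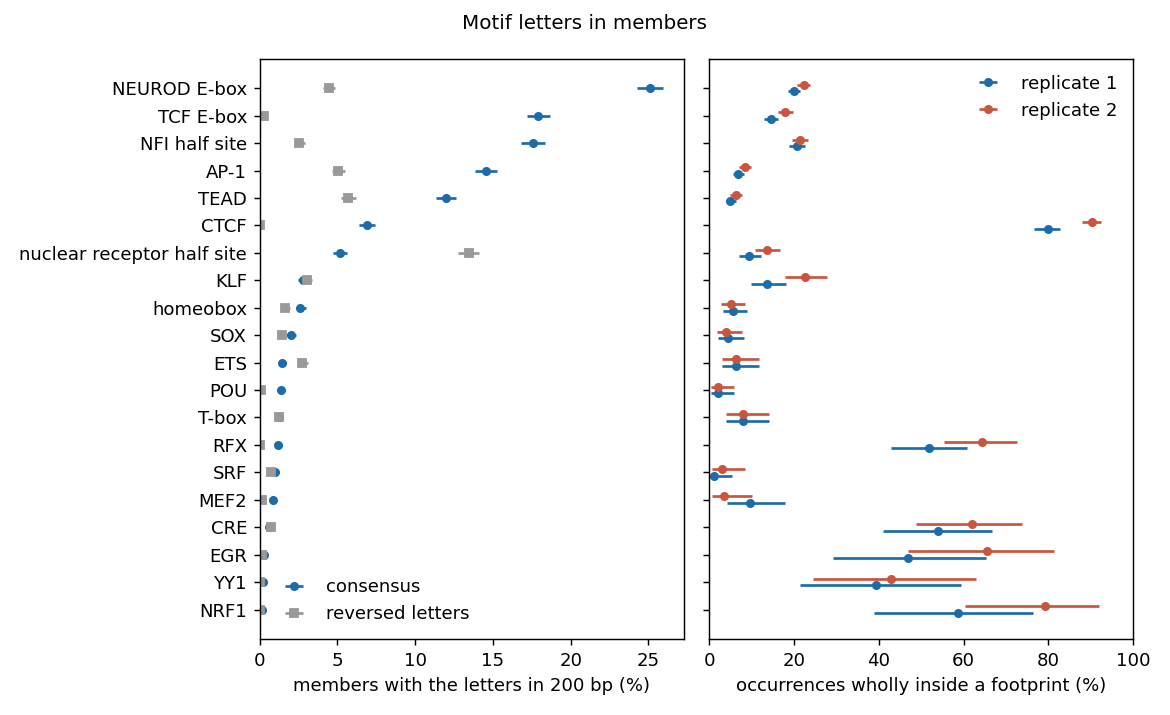
Left, share of the regions (%) holding each motif's letters or the reversed letters within 200 bp; right, share of motif occurrences (%) wholly inside a footprint in each replicate, with exact 95% intervals as bars. The NEUROD E-box is the most frequent at 25.1%, and CTCF is the most often footprinted at 79.8% and 90.3%.

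Replicates agreed less well here than at promoters. Pearson's r of log2 signal over the 9911 regions was 0.769 and Spearman's rho 0.751, and over promoter regions 0.941 and 0.946. The distant intronic regions had 0.765 and 0.749, close to those near start sites. Both coefficients describe regions of the same 2 libraries, and only those with a peak in each. Of 17656 merged regions at near-start intronic positions, 56.1% had a peak in each. At promoters 73.5% did, in distant introns 58.3%, and over all merged autosomal regions 61.4%. After centring on the median difference over all shared regions, 92 regions (0.928%) were more than 2-fold higher in replicate 1, against a background of 1.06% of all shared regions. In the other direction 509 (5.14%) were more than 2-fold higher in replicate 2, against a background of 4.65%. Both shares lay near the background. With 1 library on each side there is no test.

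Of the 20 motifs compared between the replicates, CTCF is described because its difference was the largest. In replicate 1 their median signal was 0.805, close to the 0.830 of regions without the motif. In replicate 2 it was 1.80 against 1.14. Of the 683 regions with the motif, 154 (22.5%, interval 19.5 to 25.9%) were more than 2-fold higher in replicate 2, against 3.85% (3.46 to 4.26%) of the others. They made up 30.3% of the 509. None of the 92 regions higher in replicate 1 had the motif, and a count of 0 of 683 allows a share of up to 0.439% by the limit of 3 counts, or 0.539% by the exact interval. The same held in other positions: in distant intronic regions 29.0% with the motif and 2.86% without were more than 2-fold higher in replicate 2. Over the other 19 motifs the median centred log2 difference, replicate 1 minus replicate 2, ran from -0.38 for YY1 (24 regions) to 0.22 for MEF2 (84 regions), and with CTCF it was -0.69. AP-1 regions leaned the other way. Their median difference was 0.16, against -0.02 without the motif. The 5 largest differences toward replicate 2 were in Rtraf, Mbnl1, Rin2, Efcab5 and Myh14, and none of these had the CTCF motif in the window. Mbnl1, a splicing regulator, had 0.502 in replicate 1 and 2.87 in replicate 2. Toward replicate 1 the largest were in Mctp1 (0.726 and 0.312), Clnk, Col24a1, Ppm1h and Slc35b3. By the steps replicate 1 was 1.79 times as deep as replicate 2, and the part of depth in these differences was not tested.

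**Figure D4:**
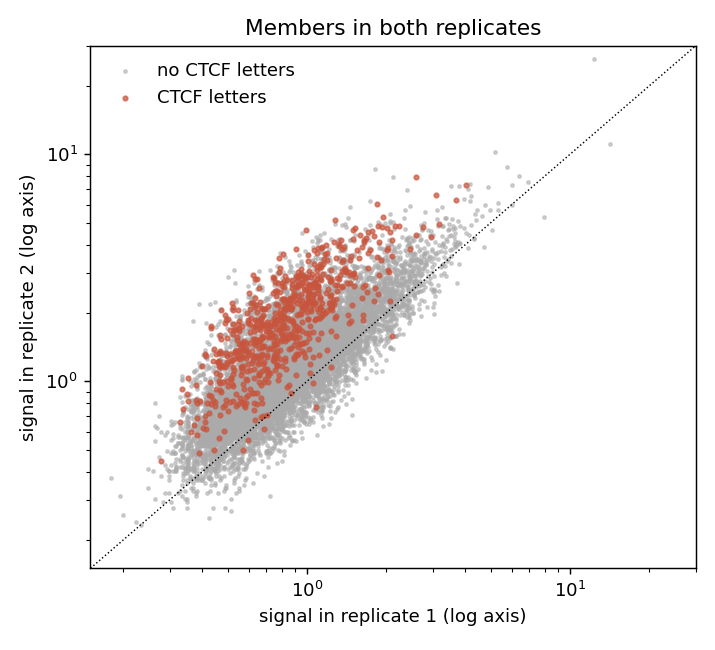
Signal of each of the 9911 regions in replicate 1 (horizontal, log axis) and replicate 2 (vertical, log axis), with regions holding the CTCF motif in red and a dotted line of equal values. Most regions lie above the line (84.3%, and 84.6% of all shared regions), and the 683 CTCF regions have medians of 0.805 and 1.80, against 0.830 and 1.14 for the others.

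The strongest regions were of several kinds. Il31ra, coding for a cytokine receptor, had 12.4 in replicate 1 and 26.2 in replicate 2, with no promoter peak in its gene. The reference marks no repeat in its window, but whether reads from like sequence elsewhere in the genome add to its signal was not tested. Gm10722 had 14.2 and 11.1 (chr9:3002041-3002220), and its window was wholly repeat sequence. Nr1d1, coding for the clock repressor REV-ERB alpha, had 6.37 and 7.99, with a promoter of 7.15 and 10.6. Aida had 7.96 and 5.29. Ppp2r3d and Gtf2ird2 lay 527 and 514 bp from a start site and their peak was also the strongest one overlapping the host's promoter window. The others among the 10 strongest were in Mxi1, Prdm2, Gm37240 and Gm20388, the Gm37240 region lying 777 bp from a start site of Fbxw7.

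The regions fell in 5461 of 19086 protein-coding genes with eligible sequence (28.6%). Of these genes 3153 held 1 region, 2005 held 2 to 4 and 303 held 5 or more. Host genes had a median of 28.7 kb of eligible sequence and the others 8.2 kb. The highest counts belonged to Gm20388 (91), Fgfr2 (33), Nav2 (19), Gm37240 (18) and Gramd1b (14). Gm20388, Fgfr2 and Gm37240 are gene models that span 4435, 2961 and 1391 kb and enclose 71, 29 and 6 other protein-coding genes. Of their regions, 41, 11 and 13 lay in no other protein-coding gene. Nav2, coding for a neuron navigator protein, held 19 regions over 280.8 kb of eligible sequence, the strongest at 2.71 and 4.87.

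The lists of genes active in neurons differed in how many of their genes held a region. Of 16 pan-neuronal genes 15 did, against 28.6% of all protein-coding genes. Among them was Rbfox3, which codes for the neuronal marker NeuN and held 10. Those ranged from 0.537 to 2.69 in replicate 1 and from 1.36 to 2.92 in replicate 2. All 21 kinase and small GTPase genes held at least 1, as did 22 of 28 voltage-gated channel genes and 15 of 20 adhesion and scaffold genes, with 12 in the presynaptic adhesion gene Nrxn2. The calcium channel gene Cacna1c held 10. Excitatory markers had 10 of 17, with 5 regions in the upper-layer gene Cux2. Glutamate receptor genes had 14 of 24. Inhibitory markers had 4 of 16, a share of 25%, with 1 region each in Gad1 and Slc32a1, neither of which had a promoter peak in each replicate. Eligible sequence differs among the lists, with medians of 93.4 kb for the kinase list and 11.8 kb for the inhibitory one.

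Densities take the length of eligible sequence into account, but not its distance from open start sites. All protein-coding genes held 0.262 regions per 10 kb. The pan-neuronal list held 0.448, the excitatory list 0.403, the kinase list 0.391 and the channel list 0.388, and the adhesion list 0.324 and glutamate receptors 0.253. The circadian clock list held 0.702, in 13 of 17 genes, with 7 regions in Arntl, 3 in Cry2 and 2 each in Per1, Per2 and Cry1. The activity-regulated list held 0.771, from 8 regions in 4 of 13 genes, namely Nr4a2, Bdnf, Egr2 and Nr4a3. Its genes had a median of 1.6 kb of eligible sequence, against 9.9 kb for all genes, and all 13 had an open promoter. Bdnf, the neurotrophin gene, had its strongest region at 3.10 and 3.63, above its promoter at 1.03 and 1.98. Microglia held 0.532, mural cells 0.528, astrocytes 0.387, oligodendrocytes 0.297 and oligodendrocyte precursors 0.221. Of the 15 microglia regions 8 were in Cx3cr1, whose model spans neighbouring genes, and of the 6 mural ones 3 were in Cspg4. Hepatocyte genes held 0.371 (5 regions) and striated muscle genes 0.314 (10 regions), so these lists of other tissues also lay above the value of all genes. The lymphocyte and erythroid list lay below it. Inhibitory markers held 0.0957, endothelial markers 0.126 and lymphocyte and erythroid genes 0.0476. None of 11 housekeeping genes held a region, over 76.5 kb of eligible sequence. This is the least sequence of any list, and whether this 0 differs from the value of all genes was not tested.

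Lists of glial and vessel genes had shares on either side of the 28.6% of all protein-coding genes. Astrocyte markers had 4 of 15 (26.7%), with 6 regions in Aldh1l1 and 4 in the glutamate transporter gene Slc1a2. Oligodendrocyte markers had 6 of 14 (42.9%), with 4 in Mbp. Endothelial markers had 3 of 13 (23.1%) and mural markers 4 of 10. Microglia markers had 6 of 18 (33.3%), with 8 in Cx3cr1, whose model spans neighbouring genes, and 2 in Spi1. Spi1, P2ry12, Cx3cr1 and Csf1r did not have a promoter peak in each replicate. Genes of tissues other than brain were not empty: hepatocyte genes had 3 of 15, striated muscle genes 6 of 17 and lymphocyte and erythroid genes 1 of 16. In Hnf4a, the liver factor gene, the strongest of 3 regions had 1.16 and 4.50, and in Ryr1, the muscle calcium release channel gene, 1.10 and 4.14.

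**Figure D5:**
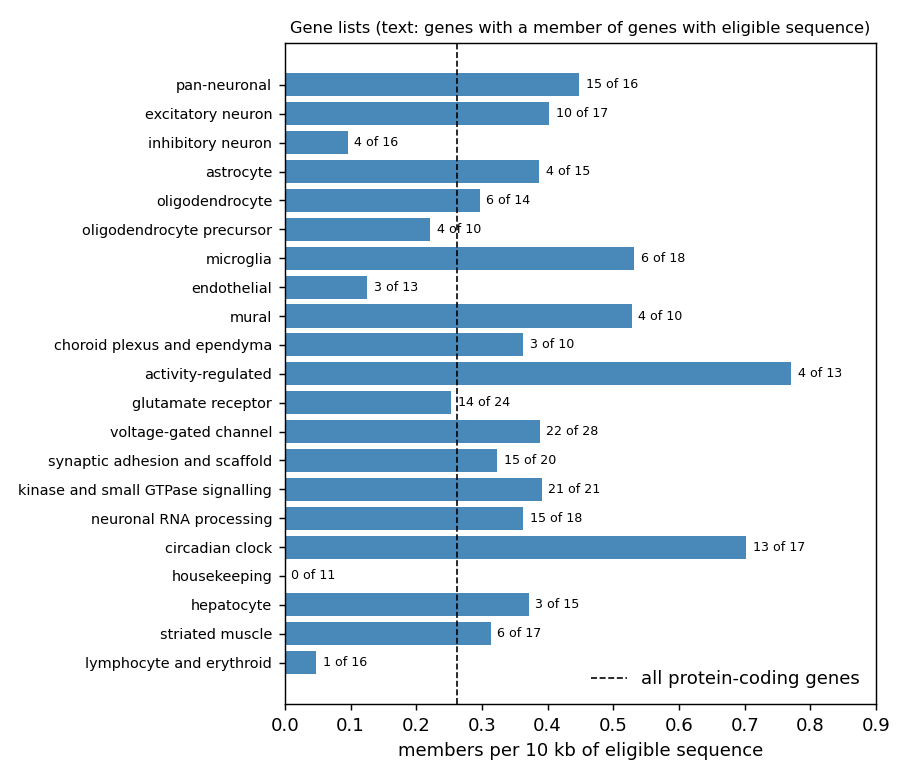
Regions per 10 kb of eligible sequence (horizontal axis) for each gene list, with the number of genes holding a region of those with eligible sequence printed beside the bar and a dashed line at the value of all protein-coding genes, 0.262. The activity-regulated and circadian lists reach 0.771 (8 regions) and 0.702 (30 regions), and the housekeeping list is at 0 over only 76.5 kb of eligible sequence.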

How the data were processed

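Peaks, footprints and intervals with a false discovery rate were deposited per library on mm10, per the file headers. Each peak carries a signal that the authors deposited, and no source used here names its normalization, the aligner or the peak caller. The authors deposited an FDR (q-value) below 0.05 for each interval and an FDR p-value threshold of 0.01 for every footprint. The shorter of the 2 peak lists per library was used (86601 and 88482 peaks). Peaks were merged with an overlap of at least 1 bp and placed by midpoint against GENCODE M21 and GRCm38.p6 on 19 autosomes. Eligible sequence was sampled every 100 bp. Intervals are exact at 95% and cover counting error only. The placement code was tested on simulated data. Python 3.11.15, numpy 2.4.6, pandas 2.3.3 and scipy 1.17.1 were used.

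The regions and the 21 gene lists were chosen with earlier results of these data known. Named were the 10 strongest regions, the 5 genes with most regions, up to 3 genes per list with most regions, the 5 largest differences in each direction and the strongest footprinted region per motif, of which some are not reported; other names were added after their values were seen. With 2 replicates of 1 group no test between conditions exists. Alternatives varied the peak list, the replicate, the start sites, the exons, the distance limit, the peak strength and the overlap.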

Additional observations from a re-analysis of the deposited data

How the results depend on the processing

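The alternatives reran the values of the near-start intronic regions, and of comparisons only the 2 density ratios and the CTCF shares, which kept their direction. The shares in all shared, promoter and distant regions were not rerun, so whether a motif's share stays above that of all shared regions was not tested: AP-1 and CTCF fell below the shares printed for all shared regions, 12.6% and 5.71%, under some alternatives. The numbers below cover 35 results, of which all 20 motif shares were rerun, and the counts for the gene lists were not. Exons of protein-coding genes only, an overlap of at least 50% and, chosen after the data were seen, leaving out the 3 gene models over 1 Mb that enclose 5 or more others moved no result beyond its interval or spread.

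With the longer peak lists there were 17437 regions, 17.5% of the shared ones, with a median of 0.856 in replicate 2, 38.7% in first introns, footprints in 88.2% and 82.8%, an open host promoter for 89.8%, 193 and 853 past 2-fold, CTCF in 5.5% and the nuclear receptor motif in 5.90%. Of regions with CTCF 26.0% were over 2-fold higher in replicate 2. With the stronger 50% of peaks there were 4982 regions (14.9%) in 3222 genes, with medians of 1.16 and 1.69, an open against other density ratio of 4.85, footprints in 98.0% and 98.2%, an open host promoter for 79.4%, and 16 and 225 past 2-fold. There CRE was in 0.823%, the NEUROD E-box in 26.6%, the TCF E-box in 19.0%, CTCF in 8.13%, SRF in 0.723%, RFX in 1.67%, EGR in 0.442%, KLF in 3.21% and homeobox in 1.85%, and 3.15% of regions without CTCF were over 2-fold higher in replicate 2. With start sites of protein-coding genes only the share was 13.2%, first introns held 39.9%, footprints in replicate 1 were in 93.7%, AP-1 in 13.8% and NFI in 16.7%. With a lower limit just over 1000 bp the share was 13.1%, first introns held 32.9%, footprints were in 96.5% and 94.4%, the open host promoter share was 83.4%, CTCF was in 7.42%, the NEUROD E-box in 26.5% and AP-1 in 15.6%. The density ratios were then 1.29 and 2.72, since the nearest distances are left out by construction. Apart from that, the cause of these shifts was not tested. These 2 definitions were added after the data had been seen: promoter regions centred within 500 bp gave 83.6%, and start sites opened by any overlapping peak gave a density ratio of 9.04 in place of 6.38.

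Using either replicate alone gave 13788 to 14091 regions, 16.5 to 16.6% of that replicate's own autosomal regions, 2.17 to 2.59 for the nearest against farthest density ratio, 6.84 to 7.71 for the open against other ratio, 38.5 to 38.9% in first introns, 86.8 to 87.9% with an open host promoter and 6407 to 6791 host genes. Medians were 0.721 and 0.981, and footprints were in 89.1% and 84.1%. Motif shares moved to 12.3 to 15.2% for AP-1, 23.6 to 24.7% for NEUROD E-box, 17.1 to 18.2% for TCF E-box, 5.10 to 7.17% for CTCF, 0.923 to 1.17% for RFX, 16.5 to 17.4% for NFI, 5.18 to 6.07% for nuclear receptor motif, 2.69 to 3.0% for homeobox.
No paired analysis was possible because there is only 1 group. The depth of the libraries is inferred from the steps of the values.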
